A study of Mus musculus with 8 samples.

Results

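Peroxisomal beta-oxidation was followed through 7 genes of its core steps in mouse liver: the acyl-CoA oxidases Acox2 and Acox3, the multifunctional enzymes Ehhadh and Hsd17b4, and the thiolases Acaa1a, Acaa1b and Scp2. The genes were listed by name and by enzyme step. All 7 were found among the 34547 genes summed from the transcript files, and all 7 were among the 13678 genes with enough reads to be tested.

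Peroxisomes shorten fatty acids that mitochondria handle poorly, such as very long, branched and dicarboxylic chains, and the side chains of bile acid precursors. In each round an oxidase passes electrons to oxygen and makes hydrogen peroxide, a multifunctional enzyme adds water and oxidises the product, and a thiolase cuts off a short acyl-CoA with the help of free coenzyme A. In the fasted mouse liver several of these genes are driven by PPAR alpha, a nuclear receptor that responds to fatty acids.

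RNA came from livers of C57BL/6J mice given adeno-associated virus (AAV) through the tail vein when they were 8 weeks old. The Nudt7 group (4 mice) received a virus carrying mouse Nudt7, the gene of a peroxisomal hydrolase of coenzyme A and acyl-CoAs, and the GFP group (4 mice) received a virus carrying the fluorescent protein GFP. All 8 mice received 2.5e+11 viral particles, were fasted for 24 h, and were 11 to 12 weeks old when the livers were taken, 3 to 4 weeks after injection. All mice of both groups carried a virus and were fasted, so the comparison is between AAV cargoes in fasted liver. Neither the promoter of the vector nor the sex of the mice is stated in the labels.

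Libraries held 11187806 to 23640734 estimated reads, and the 7 genes had 302 to 105888 reads each in a library. Nudt7 itself stood at 1301, 1599, 3569 and 1555 CPM (reads per 1e+06, on TMM-scaled library sizes) in replicates 1 to 4 of the Nudt7 group, against 60.7 to 79.9 CPM in the GFP group (log2 fold change 4.79, edgeR adjusted p = 0.000122). Nudt7 replicate 3 stood apart from the other libraries, at 63.1 on the first principal component (36.3% of the variance) where the other 7 lay between −19.9 and 2.83. Red blood cell markers (5 genes) summed to 1813 CPM in that library and to 303 to 642 CPM in the other 7. The 6 hepatocyte markers were all present, with sums of 51250 to 84820 CPM in Nudt7 livers and 63100 to 78730 CPM in GFP livers. Summed levels of 3 other marker lists did not overlap between the groups: cholangiocyte markers (5 genes) lay at 31.6 to 42.5 CPM in Nudt7 livers and 17.3 to 29.4 CPM in GFP livers, sinusoidal endothelial markers (6 genes) at 299 to 336 CPM in Nudt7 and 339 to 359 CPM in GFP livers, and exocrine pancreas markers (4 genes) at 4.45 to 5.27 CPM in Nudt7 and 3.65 to 4.15 CPM in GFP livers. Among single genes tested, 2.74% had all 4 Nudt7 livers above all 4 GFP livers and 3% had them below. No marker of any list passed in edgeR, and only 2 of the 4 exocrine pancreas markers had enough reads to be tested. Summed Kupffer cell, stellate cell and adipocyte markers overlapped between the groups, and no marker of any list was at 0 in all libraries. The part of other cell types in the values below was not tested, and in whole liver fewer cells of a type and less RNA per cell cannot be told apart.

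Levels of the 7 genes spanned a wide range when compared per transcript length. In TPM (transcripts per 1e+06, corrected for length), the order from the top in Nudt7 livers was Ehhadh (2539 ± 802), Scp2 (2176 ± 74.7), Acaa1b (2024 ± 428), Hsd17b4 (430.2 ± 35.1), Acaa1a (252 ± 33.7), Acox2 (145 ± 17.7) and Acox3 (12.7 ± 3.41; n = 4 per group, SD). In GFP livers Scp2 came first (2213 ± 102 TPM), then Ehhadh (1430 ± 587), Acaa1b (1100 ± 149), Hsd17b4 (410 ± 21.5), Acaa1a (234 ± 6.92), Acox2 (146 ± 12.9) and Acox3 (15.2 ± 1.59; n = 4 per group, SD). In both groups the first gene overlapped with the second and the second with the third, while from the third gene, Acaa1b, downward each gene lay apart from the next in every liver. The order of the 4 lower genes was the same in both groups. The 7 genes summed to 7579 ± 1205 TPM in Nudt7 livers, against 5549 ± 782 TPM in the GFP group (n = 4 per group, SD), and the single livers ranged from 6753 to 9355 TPM in the Nudt7 group and from 4851 to 6567 TPM in the GFP group. Ehhadh, Acaa1b and Scp2 together held most of this sum in every liver.

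**Figure D1:**
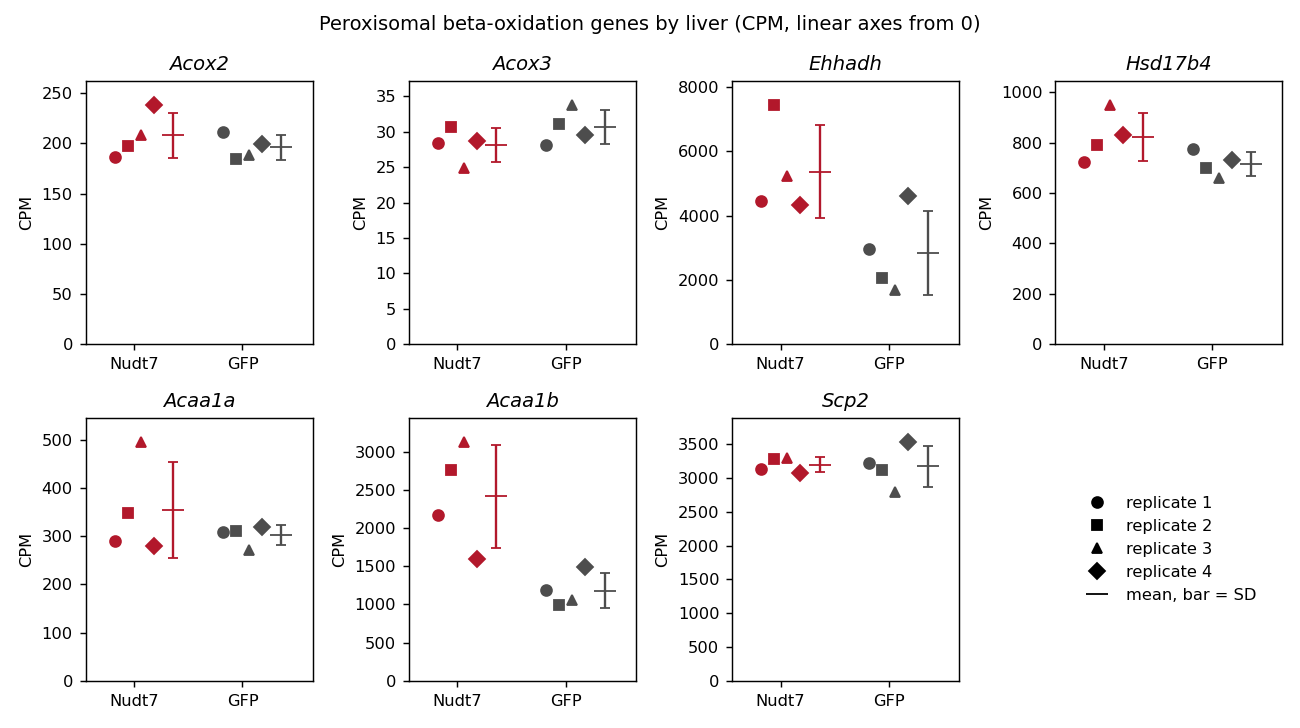
Normalised read counts (CPM, linear axes from 0) of the 7 genes in each of 4 Nudt7 livers and 4 GFP livers; symbols are replicates and bars show mean and SD. Acaa1b lay between 1598 and 3131 CPM in Nudt7 livers, above all GFP livers, whereas the other 6 genes overlapped between the groups.

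Neither of these acyl-CoA oxidase genes passed the test, and their fold changes were small. Acox2, an oxidase gene of bile acid precursors, had 187, 198, 209 and 238 CPM in replicates 1 to 4 of the Nudt7 group, against 212, 185, 189 and 199 CPM in the GFP group. The groups overlapped, and the fold change was 1.06 (95% interval 0.883 to 1.28; log2 0.09, SE 0.12, edgeR quasi-likelihood adjusted p = 0.851). Acox3, a branched-chain oxidase gene, had 28.4, 30.6, 24.9 and 28.7 CPM in Nudt7 livers and 28.1, 31.1, 33.8 and 29.6 CPM in GFP livers. Its fold change was 0.919 (95% interval 0.772 to 1.09; log2 −0.12, SE 0.11, edgeR adjusted p = 0.777), and it was the only one of the 7 with a negative value. In both groups coding transcripts made up about the same part of the Acox2 transcripts, 62.7% ± 6.81 of its TPM in Nudt7 livers, against 65.2% ± 3.87 in the GFP group (n = 4 per group, SD). The rest was assigned to processed transcripts and retained introns. Retained introns also took part of Acox3, with coding transcripts at 64.4% ± 5.66 of its TPM in Nudt7 livers, against 60.1% ± 3.95 in the GFP group (n = 4 per group, SD).

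Of the multifunctional enzymes, Ehhadh was higher in Nudt7 livers by a factor near 2 that did not pass the test, and Hsd17b4 differed less. Ehhadh encodes the L-bifunctional enzyme, the hydratase and dehydrogenase of straight-chain and dicarboxylic acids, and is a known PPAR alpha target. It had 4442, 7437, 5233 and 4342 CPM in replicates 1 to 4 of the Nudt7 group, against 2963, 2060, 1689 and 4603 CPM in the GFP group. GFP replicate 4 reached the range of the Nudt7 livers, and 2 of the 4 Nudt7 livers lay above it. The fold change was 1.90 (95% interval 1.20 to 2.99; log2 0.92, SE 0.30, edgeR adjusted p = 0.429). Ehhadh was the most variable of the 7 genes among GFP livers, with a coefficient of variation of 45.9% where the other 6 lay between 6.18% and 18.9%. Without GFP replicate 4 its log2 fold change was 1.28 (edgeR adjusted p = 0.209).

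Hsd17b4 encodes the D-bifunctional enzyme, which serves straight-chain, branched-chain and bile acid substrates. It had 722, 792, 949 and 831 CPM in Nudt7 livers and 773, 697, 659 and 730 CPM in GFP livers. Of the 4 Nudt7 livers, 3 lay above the highest GFP liver and replicate 1 did not. The fold change was 1.15 (95% interval 0.942 to 1.41; log2 0.20, SE 0.13, edgeR adjusted p = 0.693). A single coding transcript gave nearly all of its TPM, 97.0% ± 0.595 in Nudt7 livers, against 96.6% ± 0.188 in the GFP group (n = 4 per group, SD).

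Among the thiolases, Acaa1b had the largest edgeR log2 fold change of the 7 genes, although that of Ehhadh was larger with sample weights (1.18 for Ehhadh and 1.01 for Acaa1b), on both TPM scales, and without GFP replicate 4 or Nudt7 replicate 3. Acaa1b and Acaa1a are paralogs that encode 3-ketoacyl-CoA thiolase, the enzyme that cuts straight-chain substrates. Acaa1b had 2166, 2766, 3131 and 1598 CPM in replicates 1 to 4 of the Nudt7 group, against 1187, 991, 1059 and 1496 CPM in the GFP group. The groups did not overlap, although Nudt7 replicate 4 and GFP replicate 4 came close to each other. The fold change was 2.04 (95% interval 1.47 to 2.84; log2 1.03, SE 0.22), and it did not pass over all genes tested (edgeR adjusted p = 0.126). DESeq2 gave Acaa1b an adjusted p of 0.00111 and limma-voom with sample weights an adjusted p of 0.0131, both past the threshold. On the TPM scale the difference was smaller, at 2024 ± 428 TPM in Nudt7 livers, against 1100 ± 149 TPM in the GFP group (n = 4 per group, SD; ratio of means 1.84). The edgeR fit with effective length offsets gave a log2 fold change of 1.02, near that of the main fit. Why the difference was smaller in TPM was not tested.

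Acaa1a had 290.2, 348.5, 496 and 279 CPM in Nudt7 livers and 309, 310.1, 272 and 319.8 CPM in GFP livers. Nudt7 replicate 3, the library that stood apart, had the highest value. Of the 4 Nudt7 livers, 2 lay above the highest GFP liver (replicates 2 and 3), and replicates 1 and 4 lay inside the range of the GFP livers. The fold change was 1.17 (95% interval 0.888 to 1.53; log2 0.22, SE 0.18, edgeR adjusted p = 0.733), and without Nudt7 replicate 3 the log2 fold change was 0.03 (edgeR adjusted p = 0.977).

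The genes lie on chromosome 9 of GRCm38, Acaa1b at 119148023 to 119157093 on the minus strand and Acaa1a at 119339676 to 119350299 on the plus strand, with 182582 bases between them. Their coding sequences (GENCODE M21) have 1272 bases each and differ at 44 of them, so that 96.5% are the same. The first 90 coding bases, which begin at the start codon and hold 3 of the differences, are shown because they let a reader see how few bases separate the reads of these genes. Capitals mark the bases that differ.
Acaa1b: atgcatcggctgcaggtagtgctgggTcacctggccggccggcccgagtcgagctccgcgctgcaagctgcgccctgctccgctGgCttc
Acaa1a: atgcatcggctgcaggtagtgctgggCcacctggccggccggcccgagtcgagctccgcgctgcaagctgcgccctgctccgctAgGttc
The longest run without a difference was 327 bases. Of the 31-base words in Acaa1b transcripts, 40.0% also stood in Acaa1a, and 16.9% of the words of Acaa1a stood in Acaa1b, so a read from these stretches can be assigned to either gene and the split between them is uncertain. The sum of both genes does not depend on that split. Summed, they had a log2 fold change of 0.90 (SE 0.21, edgeR adjusted p = 0.176; DESeq2 adjusted p = 0.00432).

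Scp2 did not differ detectably between the groups and was the least variable of the 7 genes in Nudt7 livers. It had 3124, 3285, 3291 and 3078 CPM in Nudt7 livers and 3222, 3118, 2795 and 3534 CPM in GFP livers. All 4 Nudt7 livers lay inside the range of the GFP livers. The fold change was 1.01 (95% interval 0.820 to 1.24; log2 0.01, SE 0.14, edgeR adjusted p = 0.985).

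The Scp2 gene, on chromosome 4 (108043839 to 108144998, minus strand, GRCm38), makes different proteins from its long and short transcripts. The long transcript encodes SCPx, which joins a thiolase for branched chains and bile acid precursors to a sterol carrier domain, and the short one encodes the sterol carrier protein SCP2 alone. In GENCODE M21 the long transcript has 1641 coding bases and the short one 429, and the short coding sequence stands, in the same reading frame, at bases 1213 to 1641 of the long one. The first 60 coding bases of each are shown because they mark where the thiolase product and the carrier product begin, with the start codon in capitals.
SCPx: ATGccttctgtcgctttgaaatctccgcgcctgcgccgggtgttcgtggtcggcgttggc
SCP2: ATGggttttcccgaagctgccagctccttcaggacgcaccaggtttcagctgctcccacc
The SCPx transcript took 77.0%, 82.4%, 64.7% and 78.8% of the Scp2 TPM in replicates 1 to 4 of the Nudt7 group, against 80.2%, 79.9%, 78.3% and 83.3% in the GFP group. The groups overlapped, and Nudt7 replicate 3 was lowest. The mean share was 75.7% ± 7.71 in Nudt7 livers, against 80.4% ± 2.10 in the GFP group (n = 4 per group, SD), a difference of −4.67 percentage points (two-sided exact permutation p = 0.286). Without Nudt7 replicate 3 the difference was −0.98 percentage points. In TPM, the SCPx transcript stood at 1652 ± 215 in Nudt7 livers, against 1780 ± 121 in the GFP group, and the short coding transcript at 456 ± 123 with Nudt7 and 359 ± 30.8 with GFP (n = 4 per group, SD). Reads in the shared part can be assigned to either transcript. Of the 31-base words of Scp2, 33.4% also stood in the pseudogene Scp2-ps2, which was listed at 4.64 to 11.7 CPM.

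Over the 7 genes, 6 had positive fold changes in edgeR, where 49.8% of all genes tested had one. The median was 0.20 on the log2 scale, where that of all genes tested was −0.00. With limma on log2(TPM + 1), Acox2 (−0.0177) and Scp2 (−0.0238) were negative as well as Acox3 (−0.28). Hsd17b4 (0.07) and Acaa1a (0.10) were smaller there than in edgeR. None of the 7 passed over all genes tested in edgeR at an adjusted p under 0.05, where 0.117% of all genes did in either direction and 0.0439% as higher. An unadjusted p under 0.05 was reached by Acaa1b and Ehhadh, 2 of the 7 (8.28% of all genes in either direction and 4.25% as higher). The 4 Nudt7 livers all lay above the 4 GFP livers for 1 of the 7, Acaa1b, as they did for 2.74% of all genes. DESeq2 called 1 of the 7, again Acaa1b, and 0.685% of all genes as higher, and limma-voom with sample weights also called Acaa1b alone and 0.424% of all genes as higher. By the size of the log2 fold change, Acaa1b stood at place 90 and Ehhadh at place 123 from the top of 13678 genes. Among the remaining 5 genes the intervals reached no further than 1.53-fold higher or 0.772-fold.

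**Figure D2:**
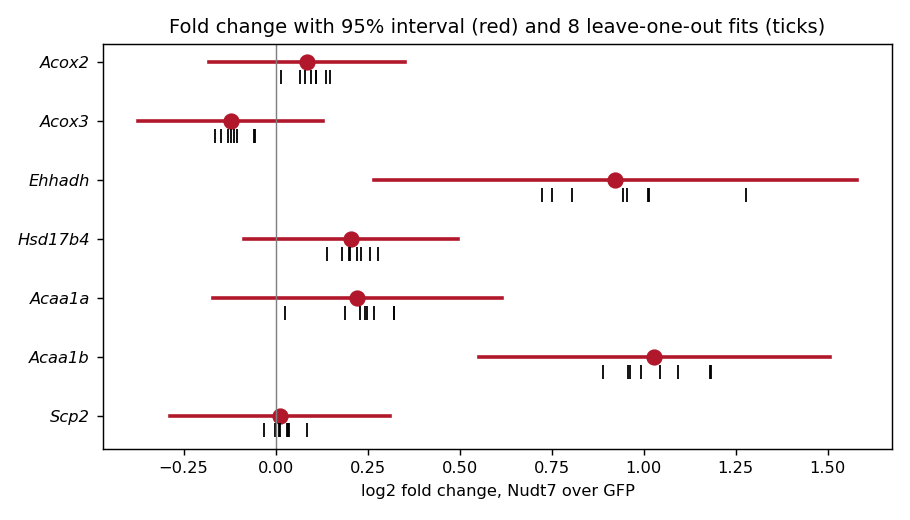
Log2 fold change of Nudt7 over GFP livers for the 7 genes (points) with 95% intervals from edgeR (red lines), and the values from 8 fits that each left out 1 library (black ticks). The points of Acaa1b (1.03) and Ehhadh (0.92) stand apart from those of the other 5, which lie between −0.12 and 0.22. The intervals of both genes overlap with that of Acaa1a (−0.17 to 0.62).

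Genes that act at the same step were also set against each other within each liver, which cancels the scaling of the libraries. There were 3 such ratios and the SCPx share, 4 tests in all, and with 4 livers against 4 the smallest two-sided exact permutation p is 0.0286. Acaa1b stood at 8.49, 9.52, 7.08 and 6.95 times the TPM of Acaa1a in Nudt7 livers, against 4.64, 3.83, 4.86 and 5.49 times in GFP livers. All 4 Nudt7 livers exceeded the highest GFP liver. The log2 ratio was 2.99 ± 0.22 in Nudt7 livers, against 2.22 ± 0.22 in the GFP group (n = 4 per group, SD), a difference of 0.77 (two-sided exact permutation p = 0.0286, or 0.114 adjusted over the 4 tests). Since the reads of these paralogs can be assigned to either gene, this ratio carries the same uncertainty as their single values.

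Ehhadh stood at 5.52, 8.40, 5.02 and 4.63 times the TPM of Hsd17b4 in Nudt7 livers, against 3.47, 2.62, 2.27 and 5.63 times in GFP livers. GFP replicate 4 again lay among the Nudt7 livers. The difference in the log2 ratio was 0.80 (two-sided exact permutation p = 0.114, or 0.229 adjusted). Acox2 stood at 8.55 to 15.5 times the TPM of Acox3 in Nudt7 livers and 8.46 to 12.1 times in GFP livers, a difference of 0.28 in the log2 ratio (two-sided exact permutation p = 0.314, adjusted 0.314). The SCPx share had an adjusted p of 0.314 in the same exact permutation family.

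**Figure D3:**
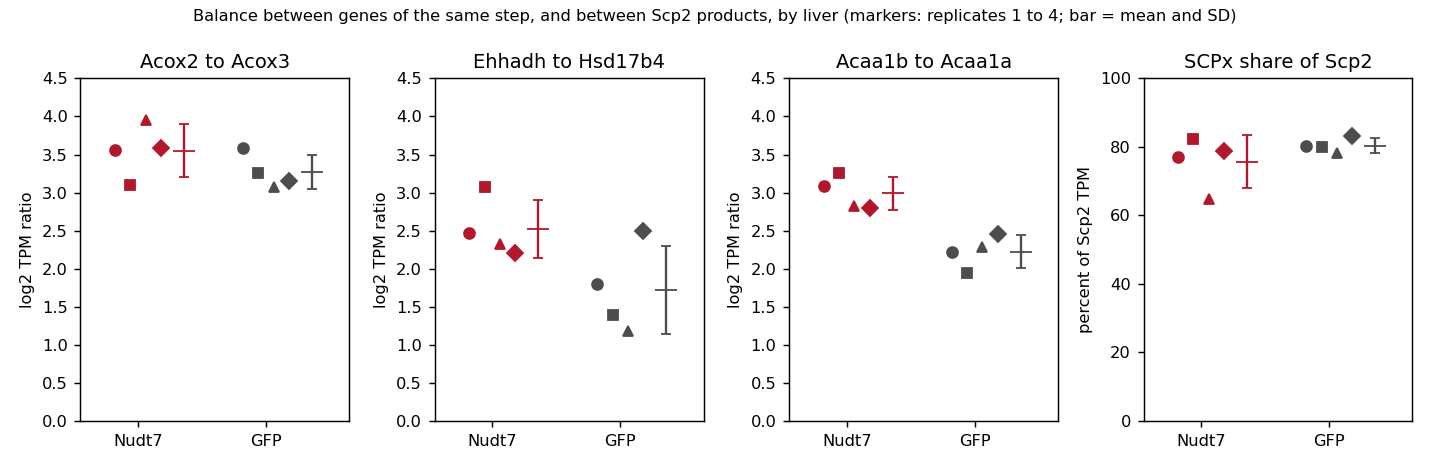
Log2 ratio of TPM between genes of the same step, and the SCPx share of Scp2 TPM in percent, in each Nudt7 and GFP liver (symbols, replicates 1 to 4; bars, mean and SD). The ratio of Acaa1b to Acaa1a lay between 2.80 and 3.25 in Nudt7 livers and between 1.94 and 2.46 in GFP livers, without overlap, and the other panels overlapped.

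The livers did not rank alike for all genes. In the Nudt7 group, replicate 3 had the highest CPM for 4 of the 7 genes (Hsd17b4, Acaa1a, Acaa1b and Scp2) and the lowest for Acox3, and replicate 2 had the highest Ehhadh. In the GFP group, replicate 4 had the highest CPM for 4 of the 7 (Ehhadh, Acaa1a, Acaa1b and Scp2), and replicate 3 had the lowest for 4 (Ehhadh, Hsd17b4, Acaa1a and Scp2). The Nudt7 liver with the most Nudt7 reads, replicate 3 at 3569 CPM, had more Acaa1b (3131 CPM) than the others but less Ehhadh (5233 CPM) than replicate 2 (7437 CPM), whose Nudt7 level was 1599 CPM. These ranks depended on the scale. In TPM, replicate 2 had the highest Acaa1b of the Nudt7 livers (2553 TPM, against 2062 TPM in replicate 3). Replicate 3 then had the lowest Ehhadh (1975 TPM), Hsd17b4 (394 TPM) and Scp2 (2067 TPM) of the Nudt7 livers, and still the highest Acaa1a (291 TPM).

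Across the 8 libraries, which include the difference between the groups, Pearson's r of log2 CPM between Acaa1b and Ehhadh was 0.88, and 0.69 after each group was centred on its mean. Only 23 of the 7694 compared genes lay closer to Ehhadh than Acaa1b did. Centred on the group means, Ehhadh and Scp2 had an r of 0.92. Acox3 ran against the others, with r values of −0.86 with Hsd17b4 and −0.72 with Acaa1a. The genes most like Acaa1b were Spon2 (0.97), Abcd3 (0.97) and Galnt1 (0.97), and among those most like Ehhadh were Actg1 (0.95) and Slc16a1 (0.94). Hsd17b4 was closest to Cr1l (0.99), Aldh9a1 (0.99) and Hadha (0.97), and Acaa1a to Dnpep (0.99), Psmb5 (0.99) and Rhod (0.98). Acox2 was closest to Plpp3 (0.95), Slc17a4 (0.95) and Acat1 (0.93), Acox3 to Slc6a6 (0.97), Chd7 (0.96) and Pigv (0.95), and among the genes most like Scp2 were Cul1 (0.97) and Nt5c2 (0.95). These r values describe 8 libraries of unequal depth, and Nudt7 replicate 3, which stood apart, is among them.

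Genes that work around the core enzymes were counted from a list of 63, of which 59 were tested. The log2 fold change was above 0 for 46 of the 59 (49.8% of all genes tested), with a median of 0.23. Over all genes tested in edgeR 1 passed as higher (0.0439% of all genes) and 0 as lower. An unadjusted p under 0.05 was reached by 12 as higher (4.25% of all genes) and 1 as lower, and DESeq2 called 5 as higher (0.685% of all genes). Without Nudt7 replicate 3, and also with the length trend removed, the unadjusted counts were 13 as higher and 4 as lower. The gene that rose was Cd36, the fatty acid uptake receptor (68.8 ± 15.8 CPM in Nudt7 livers, against 30.6 ± 4.15 CPM in the GFP group, n = 4 per group, SD; log2 fold change 1.17, edgeR adjusted p = 0.0423). That call was lost in 7 of the 8 fits that left out 1 library, all but the one without Nudt7 replicate 2, with edgeR adjusted p values of 0.0106 to 0.161 over the 8. Without Nudt7 replicate 3 the list median was 0.11, with 47 positive, and the median of the 7 core genes was 0.10.

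Of 4 ABCD transporters, which carry acyl-CoAs into peroxisomes or, for Abcd4, cobalamin out of lysosomes, 0 passed. Abcd3, a transporter of branched acyl-CoAs and bile acid precursors, stood at 985 ± 89.6 CPM in Nudt7 livers, against 674 ± 72.3 CPM in the GFP group, and Abcd4 at 24.9 ± 2.22 CPM with Nudt7 and 37.7 ± 3.57 CPM with GFP (n = 4 per group, SD; edgeR adjusted p = 0.218 for Abcd3 and 0.105 for Abcd4). Both genes had groups that did not overlap, in opposite directions, and DESeq2 called both (adjusted p = 0.00421 for Abcd3 and 0.00488 for Abcd4). All 4 Nudt7 livers lay above all 4 GFP livers for 2.74% of all genes tested, and below for 3%. DESeq2 called 89 genes as higher and 64 as lower of 12986. Groups without overlap were not particular to these transporters and were also seen for Cd36, Crot and Lonp2, with Nudt7 above. Crot, which hands shortened chains to carnitine for export, had a log2 fold change of 0.56 (edgeR adjusted p = 0.277), and Lonp2, a peroxisomal protease, one of 0.49 (edgeR adjusted p = 0.239), and DESeq2 called both (adjusted p = 0.0295 for Crot and 0.0100 for Lonp2). Slc27a2, the acyl-CoA synthetase of very long chains and bile acids, was at 0.04 (edgeR adjusted p = 0.954). Acsl1, a long-chain acyl-CoA synthetase named after its values were seen because it is the other gene of the list that DESeq2 called as higher, had a log2 fold change of 0.47 (edgeR adjusted p = 0.351, DESeq2 adjusted p = 0.00143).

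The receptor gene Ppara stood at 174 ± 20.2 CPM in Nudt7 livers, against 186 ± 31.5 CPM in the GFP group (n = 4 per group, SD; log2 fold change −0.10, edgeR adjusted p = 0.858), and the sign of its difference changed with TPM. Of 20 other PPAR alpha targets, 16 lay above 0 on the log2 scale (49.8% of all genes tested), the median was 0.24, and Cd36 was the 1 that passed as higher (0.0439% of all genes). The 4 below 0, named after their values were seen, were Fgf21 (−0.61), Pdk4 (−0.41), Angptl4 (−0.19) and Cpt1a (−0.18). None of these 4 passed.

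**Figure D4:**
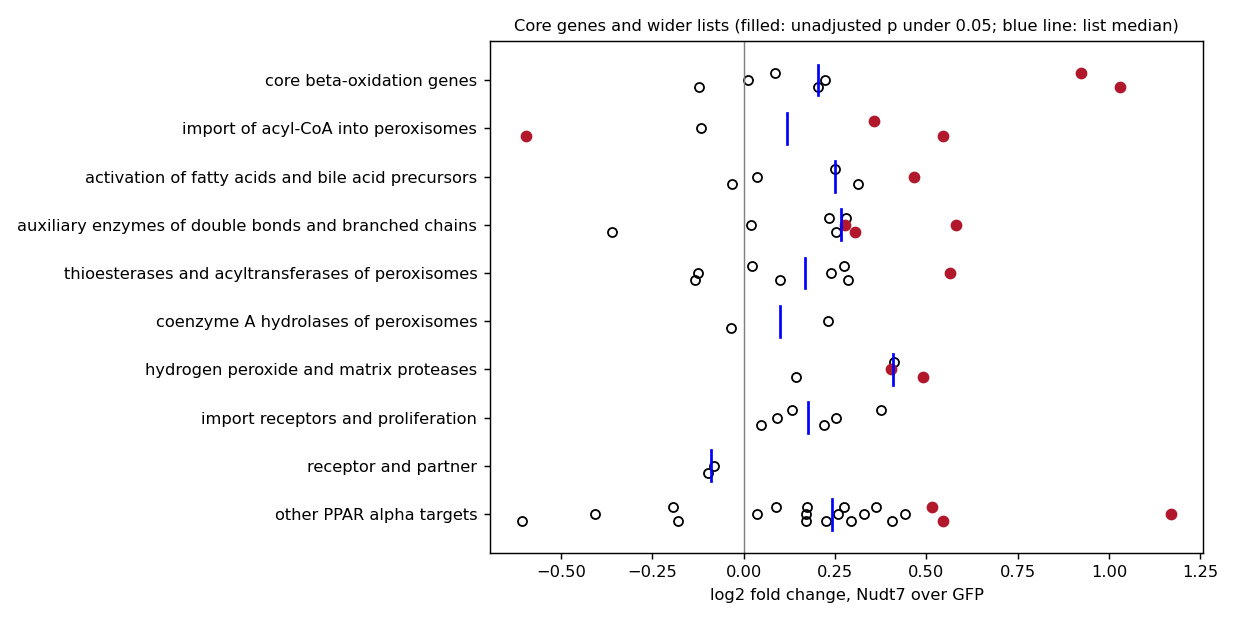
Log2 fold changes of Nudt7 over GFP livers for the 7 core genes and for 59 genes that work around them, by list; filled points have an unadjusted p under 0.05 and blue lines are list medians. Acaa1b and Ehhadh lie to the right of all others but Cd36.

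The start regions of Acaa1b and Ehhadh are shown because these genes had the largest log2 fold changes of the 7 and, before centring, the highest r of any pair. Both windows are the 250 bases before the RefSeq start (GRCm38.p6), Acaa1b at chr9:119157094-119157343 and Ehhadh at chr16:21787835-21788084, both on the minus strand, printed 5′ to 3′ along the gene. Capitals mark CCAAT, the box bound by NF-Y, GGGCGG, the GC box bound by Sp1, and AGGTCA, the core motif of nuclear receptors such as PPAR alpha, read on both strands.
Acaa1b: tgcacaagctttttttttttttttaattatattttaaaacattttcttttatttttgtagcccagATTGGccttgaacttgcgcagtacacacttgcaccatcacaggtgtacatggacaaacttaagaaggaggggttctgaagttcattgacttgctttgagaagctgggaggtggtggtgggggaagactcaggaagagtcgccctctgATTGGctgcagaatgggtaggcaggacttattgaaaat
Ehhadh: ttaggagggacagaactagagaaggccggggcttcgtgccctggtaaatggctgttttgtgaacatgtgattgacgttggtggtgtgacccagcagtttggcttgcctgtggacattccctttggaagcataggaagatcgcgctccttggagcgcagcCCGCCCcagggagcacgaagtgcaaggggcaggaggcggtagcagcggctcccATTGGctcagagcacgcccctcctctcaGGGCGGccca
Both genes hold CCAAT, on the opposite strand, 38 bases before the start, and 33.8% of 32851 promoter windows of the same length hold it. The place is not particular to this pair. Acox2, with a fold change of 1.06, also holds CCAAT on the opposite strand, 36 bases before a start, and Acaa1a has 3 matches. Ehhadh has 2 matches to GGGCGG, which stands in 32.7% of windows, and Acaa1b has 0. AGGTCA stands in 14.0% of windows and in 0 of these 2, and among the 6 core genes found in the table only the Scp2 window held it. A match or its absence describes only these letters in these windows.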

How the data were processed

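Per the labels, 500 ng of liver RNA from each mouse went into a stranded mRNA kit with 9 PCR cycles. FastQC, Salmon, DESeq2 and build GRCm38 are named in the submitters' processing notes, without versions, index or options. For each transcript the authors deposited, per the file headers, an estimated count (not normalized), a TPM value and the EffectiveLength, a quantity other than a measurement of RNA. Of 109282 transcripts, 107987 (98.8%) were named by their Ensembl identifiers from GENCODE M21, and the rest (0.552% to 1.06% of reads) were not used. Both quantities were then added up by gene, and the summed estimated counts were rounded.

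The main test was edgeR 4.0.16 (quasi-likelihood, robust, TMM, filterByExpr), two-sided, Nudt7 over GFP with no covariate, Benjamini-Hochberg over 13678 genes and a threshold of 0.05 on adjusted p. It was tested on simulated data. Intervals are from that fit and include variation between livers; each mouse gave 1 library, and replicates were numbered in the order of deposit, which pairs no mice. Ratios and the SCPx share (transcripts with at least 1500 coding bases) were tested by exact permutation (scipy 1.17.1), adjusted over 4 tests. Alternatives were RLE scaling, no filter, DESeq2 1.42.0, limma-voom with sample weights (limma 3.58.1), effective length offsets, removal of each library's trend with transcript length, limma on log2(TPM + 1) and log2(TPM + 0.1), and leaving out each library. Likeness was Pearson's r of log2 CPM (prior count 2) over genes with a mean of at least 10 CPM. Shared words were 31 bases long. The named genes were the 7 core genes, Nudt7, the 4 genes of the wider list with the smallest p, Ppara, Abcd3, Crot and Slc27a2, and 3 genes most like each core gene, of which 2 are not reported here. The members and lists were chosen with earlier results of these data known. RefSeq promoter windows (GRCm38.p6) matched 6 of the 7 genes.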

Additional observations from a re-analysis of the deposited data

How the results depend on the processing

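No paired analysis was possible because the labels give the mice of the groups no shared number. Acaa1b passed only with DESeq2 (log2 fold change 1.04, adjusted p = 0.00111) and limma-voom with sample weights (1.01, adjusted p = 0.0131) of 16 alternatives, and the sum of Acaa1a and Acaa1b only with the same methods (0.91 and 0.85, adjusted p = 0.00432 and 0.0234). Over the 8 fits that each left out 1 library, the log2 fold change ranged from 0.89 to 1.18 for Acaa1b, 0.72 to 1.28 for Ehhadh, 0.14 to 0.28 for Hsd17b4, 0.03 to 0.32 for Acaa1a, 0.01 to 0.15 for Acox2, −0.16 to −0.05 for Acox3 and −0.03 to 0.0861 for Scp2. No core gene passed in those 8 fits, with adjusted p values for Acaa1b of 0.0689 to 0.443. The sum of Acaa1a and Acaa1b ranged from 0.75 to 1.04. Signs changed for Acox2 with TPM + 1 (−0.0177) and TPM + 0.1 (−0.0179), for Scp2 with TPM + 1 (−0.0238), TPM + 0.1 (−0.0238) and without Nudt7 replicate 2 (−0.00125) or GFP replicate 3 (−0.0304), for Slc27a2 with TPM + 1 (−0.0969), TPM + 0.1 (−0.0969) and without Nudt7 replicate 4 (−0.0132), and for Ppara with effective length offsets (0.28), TPM + 1 (0.13), TPM + 0.1 (0.13) and without GFP replicate 1 (0.0374). These log2 values were smaller than 1.5 standard errors. Over libraries left out, Slc27a2 ranged from −0.0132 to 0.103 and Ppara from −0.15 to 0.0374. Over all genes, 6 were called higher and 10 lower. The counts were 15 higher with no filter, 89 and 64 with DESeq2, 58 and 42 with sample weights, 23 higher with the length trend removed, 6 lower with effective length offsets and 3 and 5 with TPM. With 1 library left out they ranged from 1 to 8 higher and 1 to 12 lower, at 1 and 1 without Nudt7 replicate 1 or GFP replicate 4, 2 and 1 without GFP replicate 2, 3 and 2 without GFP replicate 1, 4 and 1 without Nudt7 replicate 4, 4 and 5 without Nudt7 replicate 2, and 8 and 5 without Nudt7 replicate 3. The cause was not tested. Cd36 also lost its call with effective length offsets (adjusted p = 0.0546) and with TPM (0.105 and 0.117). Of the wider list, 13 genes had an unadjusted p under 0.05 as higher and 4 as lower both without Nudt7 replicate 3 and with the length trend removed, against 12 and 1, alternatives chosen after seeing the data. The difference in the ratio of Acaa1b to Acaa1a ranged from 0.67 to 0.85, that of Ehhadh to Hsd17b4 from 0.62 to 1.06, that of Acox2 to Acox3 from 0.15 to 0.43 and that of the SCPx share from −6.91 to −0.98 percentage points over libraries left out. With 4 livers against 4, the 4 tests and a smallest exact permutation p of 0.0286 left little room for an adjusted p under 0.05. With 1 library left out an adjusted p under 0.05 could not be reached, and the lowest was 0.114 (exact permutation). An unchanged call therefore says nothing about stability. Acox3, with 302 to 680 reads in a library, had the fewest reads of the 7.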
